A study of Homo sapiens with 12 samples.

Results

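The mitochondrial respiratory chain passes electrons from NADH and succinate through complexes I to IV to oxygen, pumps protons on the way, and lets ATP synthase, complex V, use the proton gradient to make ATP. Complex I oxidises NADH, complex II oxidises succinate and is also a tricarboxylic acid cycle enzyme, complex III passes electrons to cytochrome c, and complex IV reduces oxygen. Most of the subunits are encoded in the nucleus and a small set in mitochondrial DNA, so that assembly draws on both genomes. Described here are 59 nuclear-encoded subunits, chosen by gene symbol without use of any measured value, among 63129 Ensembl gene IDs in the expression table. They comprise 30 subunits of complex I, 4 of complex II, 7 of complex III, 11 of complex IV (NDUFA4, once assigned to complex I, is counted there) and 7 of complex V. Where a symbol had several rows, the row on a primary chromosome with the highest mean was used.

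RNA was sequenced in 12 libraries from 3 human lymphoma lines of the GCB-DLBCL class, a lymphoma of germinal centre B cells. In each line EZH2, the methyltransferase that places the repressive H3K27me3 mark, is mutated in its SET domain in a way that activates it, so no group is free of such a mutation. KARPAS-422 was grown for 4 days with 0.1% DMSO (3 libraries) or with 1.5 µM CPI-169 (3 libraries), Pfeiffer for 4 days with 0.1% DMSO (2 libraries) or with 1.5 µM GSK343 (2 libraries), and RL for 4 days with 0.1% DMSO only (2 libraries). CPI-169 and GSK343 inhibit the catalytic activity of EZH2; the design calls KARPAS-422 and Pfeiffer responsive and RL non-responsive. Each compound was used in 1 line, so compound and line cannot be told apart, nor can line and library numbering series. The labels do not say that replicates were separate cultures. The p-values then measure only how these libraries scatter, and that scatter may be technical.

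Expression was given as FPKM (fragments relative to transcript length and to all mapped fragments of the library), so levels can be compared between genes of different length. Fold changes are differences of log2(FPKM + 1) with their standard error (SE) from limma, and "rose" and "fell" are used for Benjamini-Hochberg adjusted p under 0.05 over the 18731 genes that reached 1 FPKM in 2 or more libraries. Of the 59 subunits, 58 entered this test, all of them above the filter in every group. NDUFS1, the large iron-sulfur subunit of complex I, has missing values in 3 libraries and is given separately. The FPKM sums of the libraries ran from 371965 to 630387 and were highest in Pfeiffer; the table holds no read counts and the depth is unknown. All 8 B cell markers exceeded 1 FPKM in every group, with summed levels of 1751 to 2773. Of 7 T and NK cell markers, 4 to 6 stayed under 1 FPKM in each group, with CD3G in KARPAS-422 (34.7 ± 0.683, SD, n = 3, in DMSO) and CD8A in Pfeiffer (411 ± 1.11, SD, n = 2, in DMSO) as the exceptions of high level. In bulk RNA, fewer cells of a kind and less RNA per cell cannot be told apart.

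In KARPAS-422, 2 libraries stood apart from their replicates in these genes. DMSO replicate 1 held the lowest value of its group for 58 of 58 subunits, against 52.8% of all tested genes, and CPI-169 replicate 2 for 57 of 58, against 48.2%. Relative to the mean of its group, the median subunit lay at -0.281 on the log2 scale in the former and at -0.173 in the latter, and the median of all tested genes at -0.029 and -0.025. The 2 GSK343 libraries differed from each other as well: across all tested genes, which are not independent replicates, their values had a Pearson correlation of 0.97, against 0.993 to 0.9972 in the other groups. Relative to the Pfeiffer DMSO mean, the median subunit lay at -0.251 in GSK343 replicate 1 and at -0.578 in replicate 2. Counts that change without these libraries are given with and without them.

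**Figure D1:**
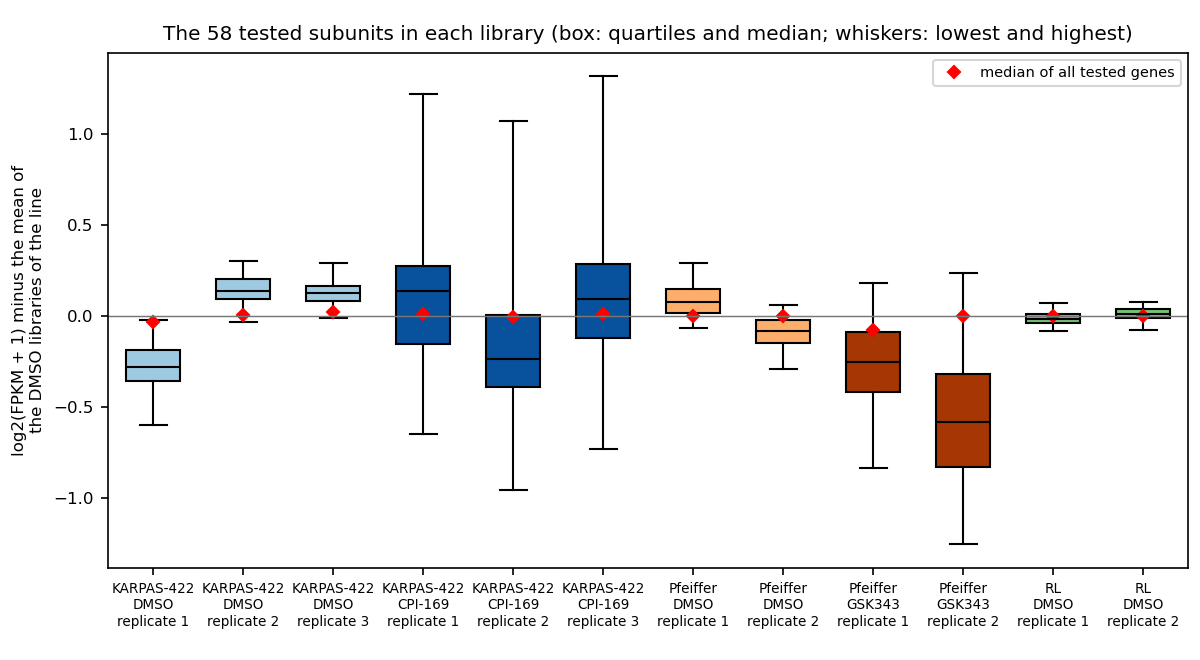
The 58 tested subunits in each of the 12 libraries, as log2(FPKM + 1) minus the mean of the DMSO libraries of the same line (y axis); boxes show quartiles and median, whiskers the lowest and highest subunit, and red diamonds the median of all tested genes. KARPAS-422 DMSO replicate 1 and CPI-169 replicate 2 sit below their replicates, and both GSK343 libraries have medians below 0, at -0.251 and -0.578.

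The subunits were among the well-expressed genes of all 3 lines, and their levels spanned more than an order of magnitude within a line. Over the 12 libraries, ATP5B, the catalytic beta subunit of ATP synthase, had the highest mean (541 FPKM), followed by the complex IV subunits COX7C (423) and COX4I1 (369). The lowest means belonged to SDHC, a membrane anchor of complex II (40.0), NDUFA5, an accessory subunit of complex I (43.7), and SDHA, the flavoprotein of complex II that oxidises succinate (44.7). In DMSO, subunits of KARPAS-422 ran from 22.8 (NDUFA4) to 363 (ATP5B) around a median of 69.9, those of RL from 31.4 (NDUFV2) to 523 (ATP5B) around 109, and those of Pfeiffer from 33.2 (SDHA) to 1050 (COX7C) around 153.

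Untreated Pfeiffer cells had the highest levels for most subunits and KARPAS-422 cells the lowest. The order Pfeiffer above RL above KARPAS-422 held for 40 of the 59 group means, and RL above Pfeiffer above KARPAS-422 for 12. The 58 tested subunits summed to 12671 ± 1192 FPKM in Pfeiffer DMSO (SD, n = 2), 7175 ± 104 in RL DMSO (SD, n = 2) and 4886 ± 777 in KARPAS-422 DMSO (SD, n = 3). As a share of all FPKM in a library, the subunits took 2.04% ± 0.150 in Pfeiffer, 1.56% ± 0.0108 in RL and 1.21% ± 0.122 in KARPAS-422, so the order of the lines was the same on that scale. Complex IV made up 36.1% of the summed level of the subunits in Pfeiffer, against 25.8% in KARPAS-422 and 24.7% in RL.

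Between KARPAS-422 and Pfeiffer, 49 of 58 subunits were lower in KARPAS-422 and 2 were higher, where 43.2% of all tested genes were lower and 39.8% higher. The median difference was -1.03 on the log2 scale, against -0.06 for all tested genes. All KARPAS-422 libraries lay below all Pfeiffer libraries for 52 subunits, against 46.8% of all genes, and above them for 2, against 43.1%. The Pfeiffer libraries have larger FPKM sums. With every library scaled to 1 FPKM sum, as for TPM, 34 subunits were lower and 7 higher, at a median of -0.40 against 0.40 for all genes. On that scale 31.7% of all genes were lower and 52.7% higher. Of the called subunits, 5 changed sign in at least 1 alternative, among them COX8A, NDUFC2, NDUFS7 and NDUFS8. COX7C, a small subunit of complex IV, stood at 92.3, 133 and 121 FPKM in the KARPAS-422 DMSO libraries, 1161 and 938 in Pfeiffer and 220.2 and 240.5 in RL. These are 9.11-fold higher mean levels in Pfeiffer than in KARPAS-422 (log2 difference of KARPAS-422 from Pfeiffer -3.18, SE 0.163, limma adjusted p = 1.25e-08). ATP5H, the d subunit in the peripheral stalk of ATP synthase, showed a similar spread, with 18.6, 24.2 and 26.1 FPKM in KARPAS-422, 206 and 193 in Pfeiffer and 67.8 and 70.2 in RL (log2 difference of KARPAS-422 from Pfeiffer -3.08, SE 0.151, limma adjusted p = 9.12e-09). The exceptions were SDHA (0.48, SE 0.0671, adjusted p = 5.1e-05) and NDUFA5 (0.42, SE 0.129, adjusted p = 0.0113), the 2 subunits that were higher in KARPAS-422.

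RL differed from KARPAS-422 mostly upward: 31 of 58 subunits were higher in RL and 2 lower, at a median of 0.50, where 33.6% of all tested genes were higher and 33.2% lower around a median of 0.00. The remaining 25 did not pass the test, and the share called in either direction was 56.9% of the subunits and 66.8% of all genes. Both RL libraries lay above all KARPAS-422 libraries for 47 subunits, against 40.5% of all genes. NDUFB10, an accessory subunit of the membrane arm of complex I, had 120.5 and 125.5 FPKM in RL against 21.8, 30.0 and 29.3 in KARPAS-422, and its RL mean was 4.55-fold higher (log2 difference 2.16, SE 0.131, limma adjusted p = 9.78e-08). NDUFV1, the core subunit that binds NADH, had 226 and 224 FPKM in RL against 53.3, 53.4 and 57.2 (2.02, SE 0.0714, limma adjusted p = 1.52e-09). NDUFA5 (-0.43) and ATP5A1, the alpha subunit of ATP synthase (-0.28), were the 2 that were lower in RL. Without KARPAS-422 DMSO replicate 1, the low library, 27 subunits were higher in RL and 3 lower, where 31.3% of all genes were higher and 33% lower.

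Against Pfeiffer, RL was lower for 31 subunits and higher for 5, with 22 not passing, where 38.7% of all tested genes were lower and 35.6% higher. Both RL libraries lay below both Pfeiffer libraries for 41 subunits, against 46.8% of all genes, and above them for 10, against 44.2%. This split depended on scaling. With libraries scaled to 1 FPKM sum, 24 subunits were lower and 16 higher, where 29.2% of all genes were lower and 46.9% higher. The median was then -0.08 against 0.26 for all genes, and in the unscaled values the medians were -0.51 and -0.03. The largest deficits in RL were in complex IV, with COX6C at 143 and 156 FPKM against 858 and 672 in Pfeiffer (-2.34, SE 0.202, limma adjusted p = 1.42e-06) and COX7C at -2.18. SDHA went the other way, with 74.8 and 75.6 FPKM in RL against 33.7 and 32.6 in Pfeiffer (1.16, SE 0.0735, limma adjusted p = 1.16e-07). NDUFB10 was also higher in RL than in Pfeiffer (0.95).

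**Figure D2:**
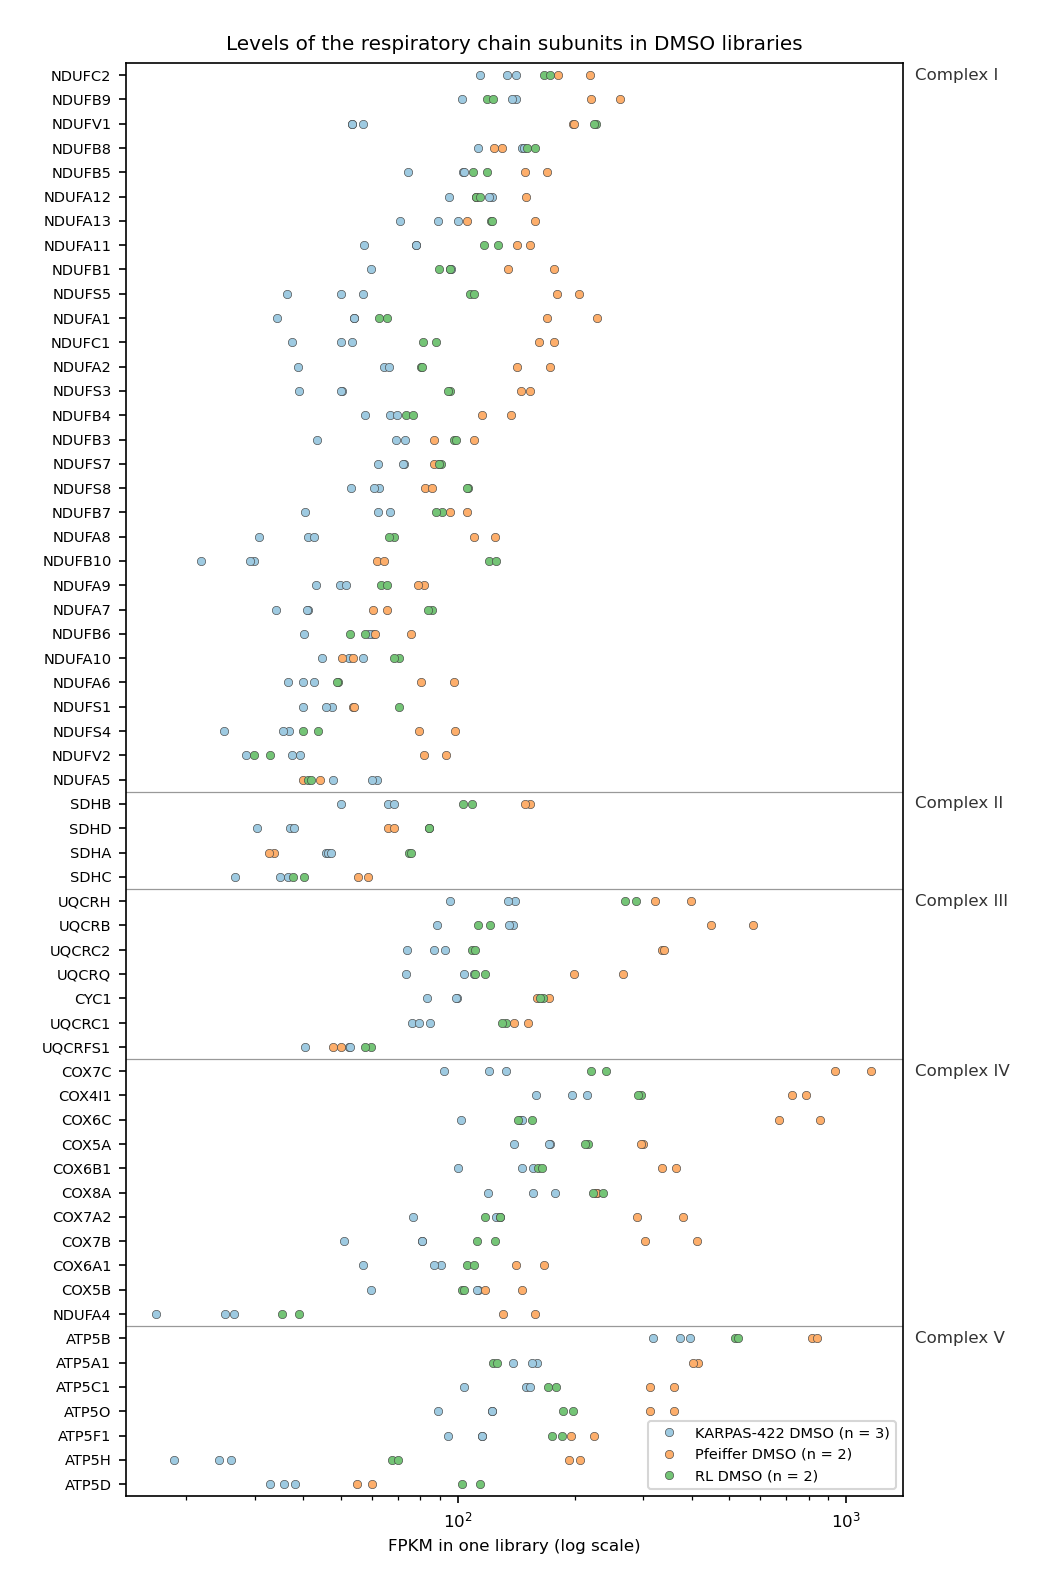
FPKM of the 59 subunits (rows, grouped by complex) in each DMSO library, on a log scale; each point is 1 library of KARPAS-422 (blue), Pfeiffer (orange) or RL (green), and NDUFS1 has 1 RL value. Pfeiffer is highest and KARPAS-422 lowest for most rows, by up to 9.11-fold for COX7C, while SDHA and NDUFA5 depart from that order.

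With CPI-169 in KARPAS-422, single subunits changed in both directions. Of the 58 subunits, 9 rose, 10 fell and 39 did not pass the test, and the median change was 0.01, the same as for all tested genes. Over all tested genes 26.9% rose and 27.3% fell, 54.2% in all, against 32.8% of the subunits. Without DMSO replicate 1, 7 rose and 15 fell at a median of -0.17, where 23.9% of all genes rose and 27.2% fell. Without CPI-169 replicate 2, 9 rose and 6 fell at a median of 0.11, where 25.5% of all genes rose and 24% fell. With both left out, 8 rose and 11 fell at a median of -0.04, where 22.8% of all genes rose and 24.3% fell. The summed level was 4939 ± 525 FPKM with CPI-169 and 4886 ± 777 in DMSO (SD, n = 3 each). All CPI-169 libraries lay above all DMSO libraries for 12 subunits, against 33.1% of all genes, and below them for 10, against 31.8%. Under median scaling 16 subunits rose and 7 fell, where 32.2% of all genes rose and 22.3% fell. The balance between the directions thus depends on the scaling, for all genes as well. The calls of 12 of the 19 subunits held in all 19 alternatives run.

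Of the 29 tested subunits of complex I, 5 rose (17.2%) and 9 fell (31%) in KARPAS-422, against 26.9% and 27.3% of all tested genes. NDUFB10 (ENSG00000140990, chr16:2009509-2011976 in hg19) rose most, from 21.8, 30.0 and 29.3 FPKM in DMSO to 63.8, 57.3 and 68.3 with CPI-169, and the groups did not overlap (log2 fold change 1.21, SE 0.117, limma adjusted p = 1.01e-05). NDUFV1 (ENSG00000167792, chr11:67374323-67380006) rose from 53.3, 53.4 and 57.2 FPKM to 85.4, 81.9 and 82.8, again without overlap (0.60, SE 0.0639, limma adjusted p = 1.94e-05). NDUFS5, on the intermembrane space side of complex I, rose by 0.73 and NDUFA1, a small membrane subunit, by 0.79. The NDUFA1 call was lost in 5 of the 19 alternatives, among them those without KARPAS-422 DMSO replicate 1, without CPI-169 replicate 1 or 3, and without both low libraries. NDUFA11 was the other complex I subunit that rose (0.59).

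The complex I subunits that fell in KARPAS-422 were NDUFB6, NDUFA6, NDUFB3, NDUFA12, NDUFA9, NDUFC2, NDUFA5, NDUFS7 and NDUFB4. NDUFA6 (ENSG00000184983, chr22:42481529-42486959) went from 36.6, 39.9 and 42.7 FPKM to 27.0, 23.7 and 25.3 (-0.63, SE 0.119, limma adjusted p = 0.00104). NDUFA9, an accessory subunit near the junction of the matrix and membrane arms, went from 43.1, 49.7 and 51.7 FPKM to 35.2, 31.1 and 31.4 (-0.55, SE 0.104, limma adjusted p = 0.00112). In both genes every treated library lay below every DMSO library. NDUFB6 fell by 0.78, more than any other subunit, from 40.3, 60.5 and 59.0 FPKM to 33.1, 26.5 and 31.3. NDUFC2 was the least stable of these calls, lost in 8 of the 19 alternatives, among them each of those that left out a CPI-169 library. Among core subunits of the peripheral arm, NDUFV1 rose and NDUFS7, the iron-sulfur subunit next to the ubiquinone site, fell by 0.38, while NDUFV2 (-0.00, SE 0.116), NDUFS3 (0.00, SE 0.168) and NDUFS8 (0.06, SE 0.075) did not pass. NDUFS1, fitted without its missing library, had 40.0, 47.3 and 45.7 FPKM in DMSO and 36.7 and 34.2 with CPI-169 (-0.31, SE 0.0946, limma adjusted p = 0.0246).

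In complexes II to V of KARPAS-422, 4 subunits rose and 1 fell of the other 29, where 26.9% of all tested genes rose and 27.3% fell. SDHA (ENSG00000073578, chr5:218356-256815) fell in complex II, from 45.8, 46.4 and 47.3 FPKM to 38.3, 37.8 and 38.7, a small change with narrow groups (-0.27, SE 0.06, limma adjusted p = 0.00267). SDHB, the iron-sulfur subunit (-0.09), and the anchors SDHC (-0.20) and SDHD (-0.13) did not pass. In complex III the core protein UQCRC1 rose (0.21, SE 0.0785, limma adjusted p = 0.0436), a call lost in 7 of the 19 alternatives; the Rieske iron-sulfur protein UQCRFS1 (-0.28, adjusted p = 0.0719) and cytochrome c1, CYC1 (-0.25, adjusted p = 0.122), did not pass. COX7C was the 1 complex IV subunit of 11 that rose (0.50, SE 0.146, limma adjusted p = 0.0131), and without CPI-169 replicate 1 its adjusted p was 0.0552. COX4I1 (0.22, adjusted p = 0.155) and COX5A (-0.29, adjusted p = 0.162) had the next smallest adjusted p values.

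ATP synthase carried 2 of the clearest rises, while the share of its 7 subunits that rose, 28.6%, was near the 26.9% of all tested genes. ATP5D, the delta subunit of the central stalk (ENSG00000099624, chr19:1241749-1244824), went from 32.8, 38.1 and 35.6 FPKM to 68.9, 62.4 and 73.0 (0.92, SE 0.0932, limma adjusted p = 1.36e-05). ATP5H (ENSG00000167863, chr17:73034958-73043080) went from 18.6, 24.2 and 26.1 FPKM to 47.0, 35.1 and 43.2 (0.84, SE 0.135, limma adjusted p = 0.000367). Neither group overlapped its control. The catalytic subunits did not pass, with ATP5A1 at 0.00 (SE 0.0799) and ATP5B at 0.04 (SE 0.113), and ATP5O, which links the peripheral stalk to the catalytic head, had 0.32 (adjusted p = 0.0735). For NDUFB10, ATP5D, ATP5H and NDUFV1, 4 of the subunits that rose, untreated KARPAS-422 also stood furthest below RL, with log2 differences of RL from KARPAS-422 of 2.16, 1.58, 1.56 and 2.02; both comparisons use the same KARPAS-422 DMSO libraries.

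**Figure D3:**
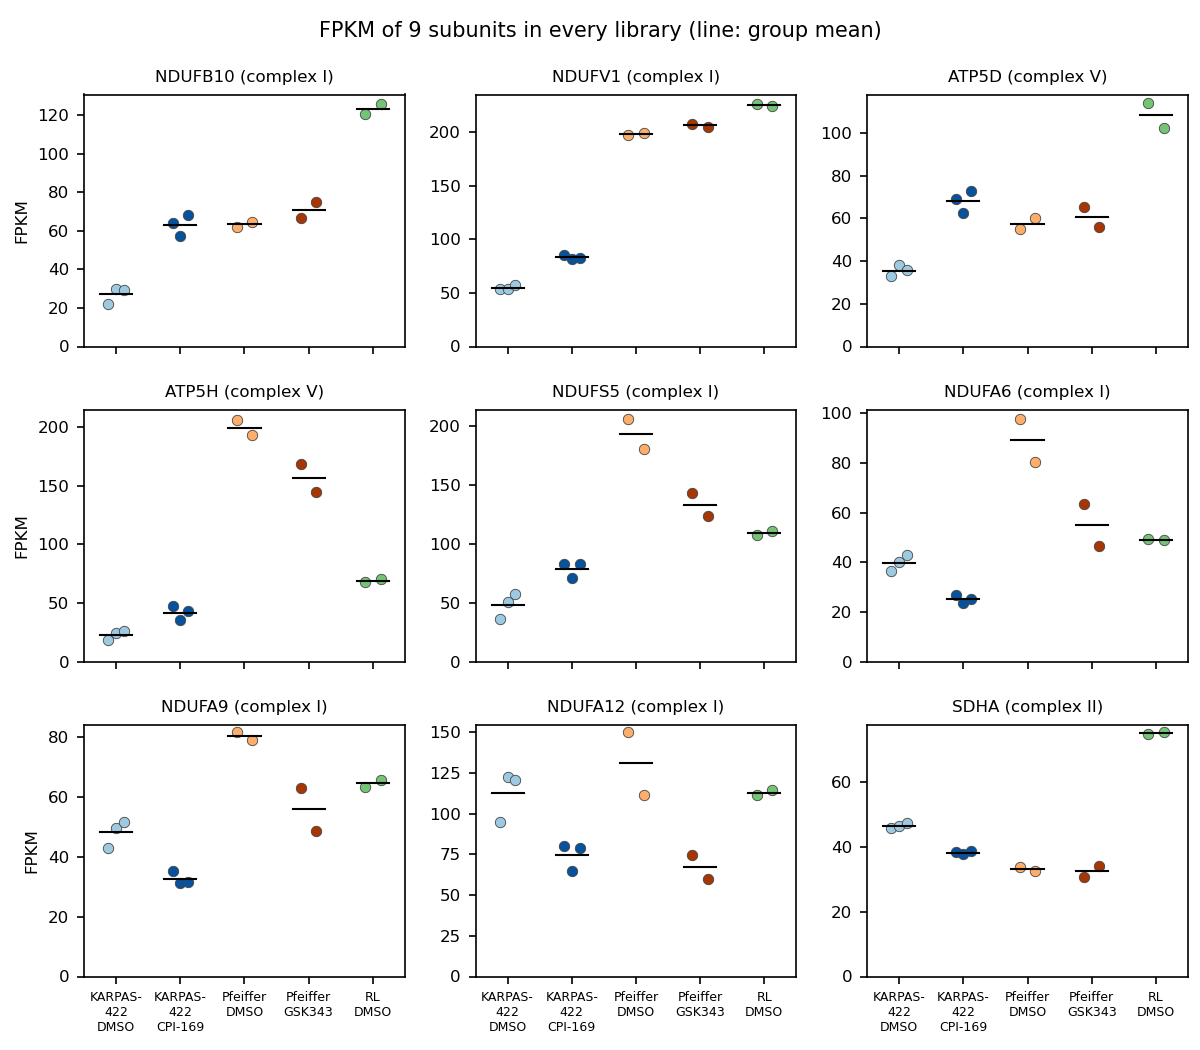
FPKM of 9 subunits (panels) in every library by group, with the group mean as a line; each y axis starts at 0. The KARPAS-422 CPI-169 libraries lie above DMSO for NDUFB10, NDUFV1, ATP5D, ATP5H and NDUFS5 and below it for NDUFA6, NDUFA9, NDUFA12 and SDHA, and the GSK343 libraries of Pfeiffer lie below DMSO for NDUFA6, NDUFA9, NDUFA12, NDUFS5 and ATP5H.

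With GSK343 in Pfeiffer, subunits fell and none rose. Of 58 subunits 15 fell, 0 rose and 43 did not pass in limma, where 17.5% of all tested genes fell and 12% rose. At an unadjusted p under 0.05, 30 were lower and 0 higher. The 17.5% and 12% are for the adjusted cut, and shares of all genes at the unadjusted cut were not taken. The fold change was negative for 53 of 58, the median was -0.41 against -0.03 for all tested genes, and the summed level was 9659 ± 1283 FPKM against 12671 ± 1192 in DMSO (SD, n = 2 each). Both GSK343 libraries lay below both DMSO libraries for 41 subunits, against 34% of all genes, and above them for 2, against 23.9%. Taken singly, GSK343 replicate 1 lay below both DMSO libraries for 44 of 58 subunits, against 52.2% of all genes, and replicate 2 for 50, against 44.5%.

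The count of 15 depended on the libraries and on the estimate of the spread, while the median lay between -0.58 and -0.18 in the alternatives run. Pfeiffer fitted alone in limma gave 0 calls among all 18731 genes, with 15 subunits lower and 0 higher at an unadjusted p under 0.05, where 2883 of all genes were lower and 1751 higher, so no call held in all 17 alternatives. Without GSK343 replicate 1, 31 subunits fell, where 22.5% of all genes did, and without replicate 2, 5 fell, where 20.3% did. Without DMSO replicate 1, 1 subunit fell, where 9.59% of all genes did, and without DMSO replicate 2, 8 fell, where 11.2% did. The share of subunits that fell was thus below that of all genes without GSK343 replicate 2 and without DMSO replicate 1. The spread is shared by all groups, and with the 2 low KARPAS-422 libraries left out 28 fell, where 18.4% of all tested genes did. Under quantile normalization 5 fell, again a smaller share than the 13.6% of all genes, and without a filter on low values 7 fell, where 7.26% of all genes did. NDUFA12 kept its call in 16 of the 17 alternatives and NDUFA6, NDUFC1 and NDUFS7 in 15.

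In complex I of Pfeiffer, 11 of 29 subunits fell (37.9%, against 17.5% of all tested genes). NDUFA12 (ENSG00000184752, chr12:95290831-95397546), an accessory subunit of the peripheral arm, went from 150 and 112 FPKM in DMSO to 74.5 and 59.8 with GSK343 (-0.95, SE 0.179, limma adjusted p = 0.00302). NDUFA6 went from 97.8 and 80.4 FPKM to 63.5 and 46.5 (-0.70, SE 0.145, limma adjusted p = 0.00523), and NDUFS7 from 89.3 and 87.0 to 67.3 and 51.1 (-0.58, SE 0.134, limma adjusted p = 0.0088). In all 3 genes both treated libraries were below both controls, and GSK343 replicate 2 was the lower one. NDUFC1 (-0.69), NDUFA9 (-0.53), NDUFB3 (-0.92), NDUFA7 (-0.71), NDUFB6 (-0.84), NDUFB8 (-0.58), NDUFS5 (-0.54) and NDUFC2 (-0.68) also fell. NDUFA7 and NDUFB8 each overlap another gene ID listed under the same symbol, with up to 11.0 and 20.6 FPKM, and how reads were divided between them is not given in the sources used here. NDUFS8, a core iron-sulfur subunit, stood at 82.5 and 85.9 FPKM in DMSO and 83.3 and 86.0 with GSK343 (0.01, SE 0.0918, adjusted p = 0.964), and NDUFB5 was at -0.08. NDUFS1, fitted with 1 GSK343 library, had -0.28 (limma adjusted p = 0.145).

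In the other complexes of Pfeiffer, SDHB fell from 153 and 149 FPKM to 105 and 106 (-0.51, SE 0.145, limma adjusted p = 0.0231), while SDHA remained at 30.9 and 34.2 against 33.7 and 32.6 (-0.03, SE 0.0735). No complex III subunit passed in limma. At an unadjusted p under 0.05, 2 were lower and 0 higher, and shares of all genes at that cut were not taken. UQCRC2 had 331 and 353 FPKM against 336 and 340 (0.01, SE 0.118). In complex IV, COX6C fell from 858 and 672 FPKM to 489 and 425 (-0.73, SE 0.202, limma adjusted p = 0.0204) and COX4I1 from 789 and 725 to 551 and 538 (-0.47, SE 0.149, limma adjusted p = 0.0358). All 11 fold changes of complex IV were negative, from -0.84 (COX7A2, adjusted p = 0.0588) to -0.31 (COX7C, adjusted p = 0.22). In ATP synthase the central stalk subunit ATP5C1 fell from 359.9 and 313 FPKM to 219 and 205 (-0.66, SE 0.195, limma adjusted p = 0.0272). ATP5B, the most abundant, had 748 and 845 FPKM against 816 and 839 (-0.06, SE 0.139).

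**Figure D4:**
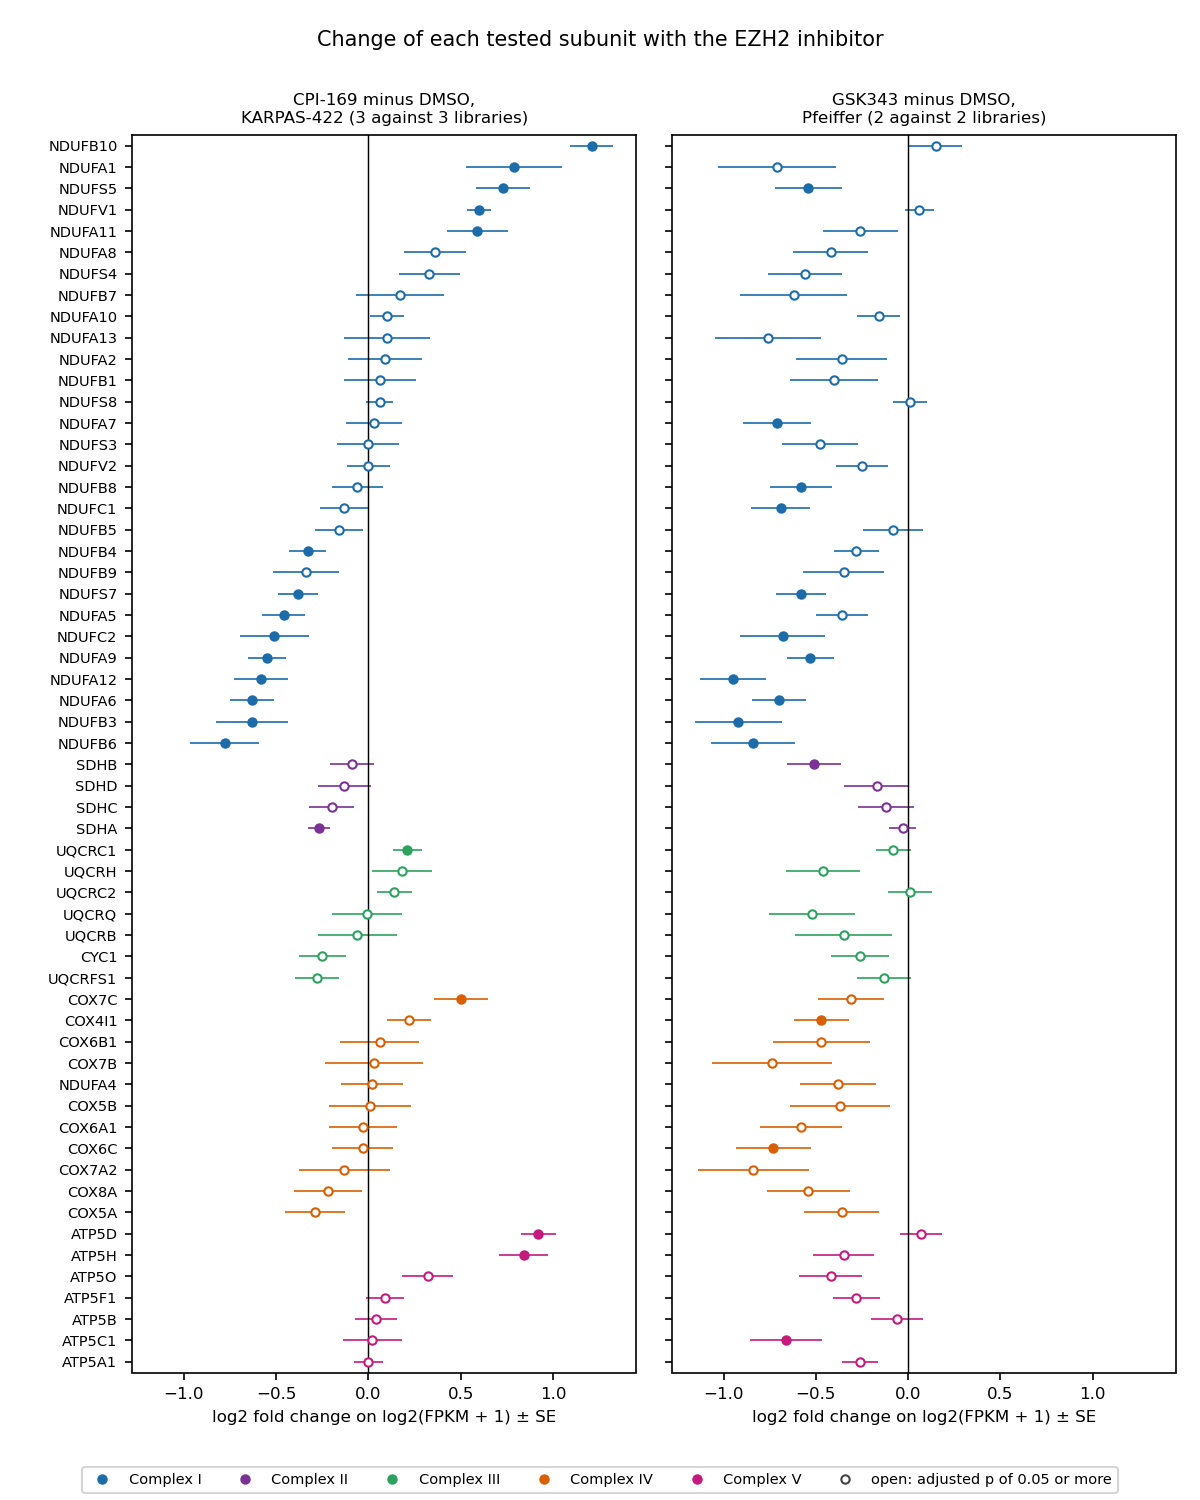
Fold change of each of the 58 tested subunits (rows, by complex) with CPI-169 in KARPAS-422 (left) and GSK343 in Pfeiffer (right), on the log2(FPKM + 1) scale with the SE as bar; filled points have a limma adjusted p under 0.05. KARPAS-422 shows changes on both sides of 0 around a median of 0.01, and Pfeiffer lies mostly below 0 around a median of -0.41.

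The subunits that fell in both lines were all in complex I. That complex holds 29 of the 58 tested subunits, 9 of the 10 that fell in KARPAS-422 and 11 of the 15 that fell in Pfeiffer. The subunits that fell in both were NDUFA6, NDUFA9, NDUFA12, NDUFB3, NDUFB6, NDUFC2 and NDUFS7. These 7 genes are 70% of the 10 that fell in KARPAS-422 and 46.7% of the 15 that fell in Pfeiffer. Among all tested genes, 5106 fell in KARPAS-422, 3281 in Pfeiffer and 1315 in both, the last being 7.02% of all tested genes. The treated lines share no control libraries. In limma 0 subunits rose in both, where 5.65% of all tested genes did. In Pfeiffer 0 were higher at an unadjusted p under 0.05 in limma, a cut at which shares of all genes were not taken. NDUFS5 rose in KARPAS-422, from 36.4, 50.1 and 56.9 FPKM to 83.0, 70.7 and 82.7, and fell in Pfeiffer, from 205 and 181 to 142 and 123. A total of 32 subunits passed in neither line.

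A test of the difference between the 2 inhibitor effects called 15 subunits, all with a lower effect in Pfeiffer. These are 25.9% of the 58, near the 23.8% of all tested genes with a lower effect there. A higher effect was called for 0 subunits and for 18.8% of all tested genes. At an unadjusted p under 0.05 the limma test had 22 lower and 1 higher, the latter being SDHA (0.25, adjusted p = 0.0583). Shares of all genes at that unadjusted cut were not taken. The calls with the smallest adjusted p were ATP5D (-0.85, SE 0.147, adjusted p = 0.00118), NDUFB10 (-1.05, SE 0.185, adjusted p = 0.00126), ATP5H (-1.19, SE 0.213, adjusted p = 0.00142), NDUFS5 (-1.26, SE 0.231, adjusted p = 0.00156) and NDUFV1 (-0.54, SE 0.101, adjusted p = 0.00172). These 5 held in all 22 alternatives. The count of 15 became 5 without Pfeiffer DMSO replicate 1, 8 without GSK343 replicate 2 and 27 without GSK343 replicate 1, where 18%, 28.3% and 27.9% of all genes had a lower effect. It was 11 without KARPAS-422 DMSO replicate 1, 20 without CPI-169 replicate 2 and 18 without both. In these settings 21.3%, 23% and 20.9% of all genes had a lower effect. The share of subunits was thus below that of all genes without KARPAS-422 DMSO replicate 1, without Pfeiffer DMSO replicate 1 and without GSK343 replicate 2. For 3 of the called subunits, NDUFB10, NDUFV1 and ATP5D, the Pfeiffer fold changes were 0.15, 0.06 and 0.07 and did not pass (limma adjusted p = 0.454, 0.63 and 0.67). The 7 complex I subunits that fell in both lines had differences between -0.36 (NDUFA12) and 0.02 (NDUFA9), none of which passed the test.

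**Figure D5:**
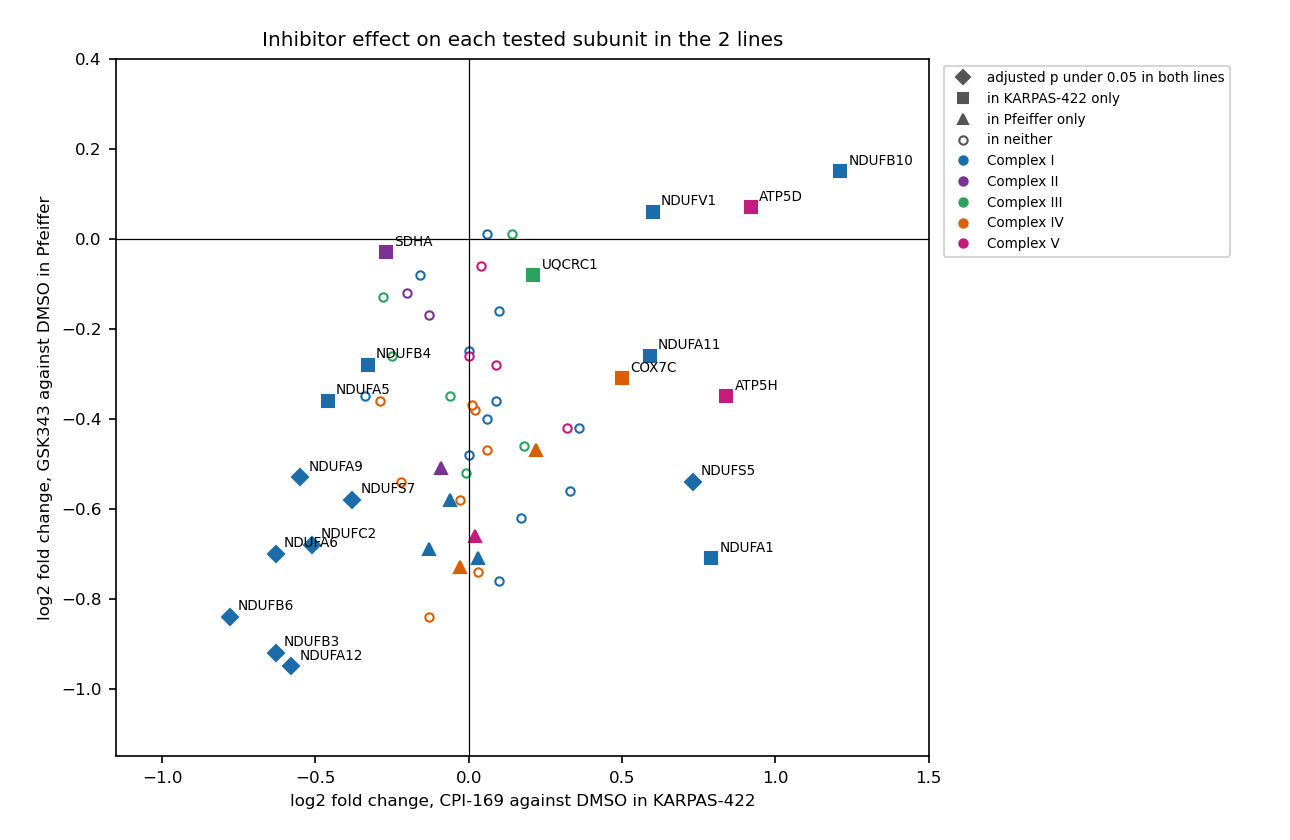
Fold change of each tested subunit with CPI-169 in KARPAS-422 (x axis) against that with GSK343 in Pfeiffer (y axis), both on the log2(FPKM + 1) scale; the marker shows in which line the adjusted p was under 0.05 and the colour shows the complex. The 7 diamonds at lower left are the complex I subunits that fell in both lines, and NDUFS5 is the diamond at right.

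Nuclear respiratory factor 1 (NRF1), the ETS factor GABPA and YY1 are known to bind promoters of many respiratory chain genes, and the promoters of the subunits were searched for a short form of each motif. The letters searched were GCGCANGCG for NRF1, CCGGAAGT for GABPA and AAGATGGC for YY1, on both strands, in the 300 bases from 250 before to 50 after the RefSeq start site (GRCh38.p14, a later build than the hg19 of the expression table). A window was found for 48 of the 59 subunits. An NRF1 match lay in 13 of the 48 (27.1%), against 8.05% of 27305 promoters and 11.0% of those of protein-coding genes. A GABPA match lay in 8 (16.7%, against 4.44% and 6.19%) and a YY1 match in 9 (18.8%, against 3.03% and 3.91%), and any of the 3 in 25 (52.1%, against 14.1% and 19.0%). Among subunits that fell in KARPAS-422, 5 of 9 windows had an NRF1 match, against 2 of 7 among those that rose and 6 of 31 among the others. In Pfeiffer it was 4 of 12 among those that fell and 9 of 35 among the others. A YY1 match lay in 5 of 12 that fell in Pfeiffer and 4 of 35 others. In KARPAS-422 YY1 had 3 of 9 that fell, 1 of 7 that rose and 5 of 31 others. GABPA had 0 of 9 that fell, 1 of 7 that rose and 6 of 31 others in KARPAS-422. In Pfeiffer GABPA had 0 of 12 that fell and 7 of 35 others. These are counts of letters, not of binding.

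The promoters of SDHA and of 3 subunits that fell in both lines are printed because they hold NRF1 matches, and those of NDUFB10 and NDUFV1, which rose in KARPAS-422, because they hold none of the 3 motifs. Each is the 170 bases before the start site, from RefSeq, 5′ to 3′ on the strand of the gene, with motif matches in capitals.
SDHA (chr5:218150-218319, plus strand): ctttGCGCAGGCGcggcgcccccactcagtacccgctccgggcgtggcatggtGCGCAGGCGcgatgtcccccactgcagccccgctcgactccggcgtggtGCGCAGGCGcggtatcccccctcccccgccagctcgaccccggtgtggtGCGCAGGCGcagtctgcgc
NDUFA12 (chr12:95003698-95003867, minus strand): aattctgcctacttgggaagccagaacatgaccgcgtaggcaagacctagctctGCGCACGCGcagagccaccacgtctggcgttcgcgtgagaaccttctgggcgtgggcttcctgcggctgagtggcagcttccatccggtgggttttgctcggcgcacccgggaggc
NDUFA9 (chr12:4648944-4649113, plus strand): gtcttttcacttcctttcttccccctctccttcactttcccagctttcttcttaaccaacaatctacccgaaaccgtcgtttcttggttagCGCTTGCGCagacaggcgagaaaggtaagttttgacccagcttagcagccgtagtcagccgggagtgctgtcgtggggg
NDUFS7 (chr19:1383737-1383906, plus strand): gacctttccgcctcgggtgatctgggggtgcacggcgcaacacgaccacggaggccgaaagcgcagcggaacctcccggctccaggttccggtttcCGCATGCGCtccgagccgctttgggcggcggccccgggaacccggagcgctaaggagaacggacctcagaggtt
NDUFB10 (chr16:1959368-1959537, plus strand): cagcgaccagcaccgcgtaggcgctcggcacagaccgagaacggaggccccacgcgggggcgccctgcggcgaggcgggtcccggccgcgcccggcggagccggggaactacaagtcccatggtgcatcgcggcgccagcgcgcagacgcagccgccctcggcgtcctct
NDUFV1 (chr11:67606766-67606935, plus strand): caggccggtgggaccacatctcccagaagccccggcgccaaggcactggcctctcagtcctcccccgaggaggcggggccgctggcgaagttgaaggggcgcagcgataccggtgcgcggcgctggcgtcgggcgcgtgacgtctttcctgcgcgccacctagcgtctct

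SDHA held 4 NRF1 matches on the same strand, starting 166, 117, 68 and 19 bases before the start site, so that each is 49 bases from the next. NDUFA12, NDUFA9 and NDUFS7 held 1 each, at 116, 79 and 74 bases before it. NDUFA9 and NDUFS7 also had a YY1 match just after the start site, which is not printed. The printed promoters were picked by their matches and do not stand for all subunits. NDUFA11 and UQCRC1, which rose in KARPAS-422, held NRF1 matches, and NDUFA5, NDUFB3 and NDUFB6, which fell, held none of the 3 motifs. Any of the 3 lay in 6 of 9 windows that fell in KARPAS-422, 3 of 7 that rose and 15 of 31 others.

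The transcript of NRF1 fell in both lines. NRF1 had 15.0 ± 0.624 FPKM in KARPAS-422 DMSO and 8.74 ± 0.386 with CPI-169 (SD, n = 3 each; -0.72, SE 0.0687, limma adjusted p = 9.27e-06), and 5.73 ± 0.139 in Pfeiffer DMSO and 3.50 ± 0.236 with GSK343 (SD, n = 2 each; -0.58, SE 0.0841, limma adjusted p = 0.00062). TFAM, which packages mitochondrial DNA and acts in its transcription, fell by 0.86 and by 0.53. YY1 fell in KARPAS-422 (-0.54, adjusted p = 0.000577) and was at 0.01 in Pfeiffer, and GABPA passed in neither (0.06 and -0.06). ESRRA, a nuclear receptor that activates respiratory genes, rose in KARPAS-422 (0.52) and did not pass in Pfeiffer (0.23, adjusted p = 0.111). MYC likewise rose in KARPAS-422 (0.96) and did not pass in Pfeiffer (0.15, adjusted p = 0.548). The coactivator PPRC1 fell in KARPAS-422 (-0.40) and PPARGC1B did not pass (-0.22); neither passed in Pfeiffer (-0.07 and 0.10). PPARGC1A was under the filter. Of 18 tested regulators of mitochondrial biogenesis 2 rose (11.1%) and 7 fell (38.9%) in KARPAS-422, against 26.9% and 27.3% of all tested genes. In Pfeiffer 0 rose and 3 fell (16.7%), against 12% and 17.5%, so the share that fell there was near that of all genes. EZH2, the target of both compounds at the protein level, had -0.20 in KARPAS-422 (adjusted p = 0.175) and -0.84 in Pfeiffer (adjusted p = 0.00169).

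Other genes of the respiratory chain and of mitochondria were given from lists, whose counts stand against the 26.9% of all tested genes that rose and 27.3% that fell in KARPAS-422, and the 12% and 17.5% in Pfeiffer. Of the 20 remaining subunits, 1 rose and 3 fell in KARPAS-422 at a median of -0.06, and 0 rose and 5 fell in Pfeiffer at a median of -0.42, close to the -0.41 of the 58. ATP5G2, a copy of the membrane ring subunit, rose in KARPAS-422 (0.37) and ATPIF1, the inhibitor of ATP synthase, fell (-0.46); ATP5J (-0.75) and NDUFS6 (-0.46) fell in Pfeiffer. Of 42 assembly factors, 13 rose and 12 fell in KARPAS-422, and 0 rose and 8 fell in Pfeiffer. The shares of 31% and 28.6% in KARPAS-422, and of 19% lower in Pfeiffer, were near those of all genes. ACAD9, needed to assemble complex I, rose in KARPAS-422 from 3.17 ± 0.201 to 10.4 ± 0.0210 FPKM (SD, n = 3 each; 1.45, SE 0.0640, limma adjusted p = 5.38e-08), the largest change in any of these lists there. NDUFAF3, another complex I assembly factor, rose in KARPAS-422 (0.83) and fell in Pfeiffer (-0.45). COX17, the copper chaperone of complex IV, fell in Pfeiffer from 61.4 ± 12.8 to 23.2 ± 6.87 FPKM (SD, n = 2 each; -1.38, SE 0.221, limma adjusted p = 0.00115).

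Mitochondrial ribosomal proteins translate the mitochondrially encoded subunits. Of 76, 8 rose and 29 (38.2%) fell in KARPAS-422 (median -0.14), and 1 rose and 28 (36.8%) fell in Pfeiffer (median -0.40). MRPS6 fell by 0.83 and MRPS18A by 0.84 in KARPAS-422, and MRPS34 by 0.63 and MRPL11 by 1.16 in Pfeiffer. Of 13 tricarboxylic acid cycle enzymes, 2 rose and 5 fell in KARPAS-422 and 0 rose and 5 fell in Pfeiffer; DLST, a component of the oxoglutarate dehydrogenase complex, fell in both (-0.71 and -0.41). Of 10 electron carriers and nucleotide or phosphate carriers, 3 rose and 3 fell in KARPAS-422 and 0 rose and 2 fell in Pfeiffer; SLC25A4, an ADP/ATP carrier, fell in both (-0.61 and -0.41), while SLC25A3, the phosphate carrier, rose in KARPAS-422 (0.58). These counts were not tested against other gene groups. The 13 mitochondrially encoded subunits are listed at 0 in every library, and were not compared.

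Some markers of cell identity also changed with the treatments. In KARPAS-422, 2 of 8 B cell markers (25%) rose, MS4A1 (0.95) and MME (0.28). Another 3 (37.5%) fell, among them PAX5 (-0.69) and CD79A (-0.61). Over all tested genes 26.9% rose and 27.3% fell in KARPAS-422. There 4 of 5 tested T and NK cell markers rose as well, with summed levels of 35.5 to 37.2 FPKM in DMSO and 53.3 to 60.0 with CPI-169; NKG7 rose to 1.85 ± 0.209 FPKM (SD, n = 3). In Pfeiffer the epithelial marker EPCAM fell from 135 ± 0.309 to 58.2 ± 11.9 FPKM (SD, n = 2 each; -1.21), while KRT18 (0.50) and COL1A1 (0.89) rose and KRT8 did not pass (0.02). Of the 8 B cell markers MME fell in Pfeiffer (-0.61) and the others did not pass. That is 12.5% of these markers, against 17.5% of all tested genes that fell there. The part of these markers in the results for the subunits was not tested.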

How the data were processed

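The series was used as 1 table of FPKM values deposited by the authors, with a column for each of the 12 libraries. Per the submitters' processing notes, TopHat 1.4.1 and Cufflinks made them on hg19; the annotation, strand handling and library kit could not be read from the labels. Cells were lysed in Trizol or RLT, per the labels' protocols, without saying which library had which. Because FPKM is relative to all mapped fragments, abundant transcripts lower the other values of a library.

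Values were taken as log2(FPKM + 1), which understates changes of low genes, and 77 genes with missing values were left out. A single limma-trend model (limma 3.58.1, R 4.3.3) held the 5 groups, which therefore share the estimate of the spread (residual degrees of freedom 7, prior 3.45). Calls used Benjamini-Hochberg adjusted p under 0.05. The fit was tested on simulated data.

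Members, lists and tests were chosen with earlier results of these data known. The rule for named genes took, per complex and inhibitor, the 4 smallest and 2 largest adjusted p, 5 subunits for the difference, 2 at each end of each baseline comparison, the 3 highest and 3 lowest levels, 2 genes per list and 10 set regulators. Other names were chosen after their values were seen. Alternatives were other pseudocounts, filters, scalings, row choices and spread models, a replicate block, lines fitted alone and libraries left out.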

Additional observations from a re-analysis of the deposited data

Results flagged for a closer look

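Of the 15 subunits whose inhibitor effects differed between the lines in the test of the difference itself (limma, adjusted p under 0.05), the 10 that the rule for named genes took are given here. The Pfeiffer effect minus the KARPAS-422 effect on the log2 scale was -0.54 for NDUFV1, -1.05 for NDUFB10, -1.26 for NDUFS5 and -0.57 for NDUFC1 in complex I. In complex IV it was -0.69 for COX4I1 and -0.81 for COX7C. In ATP synthase it was -0.69 for ATP5C1, -0.85 for ATP5D, -1.19 for ATP5H and -0.74 for ATP5O. Line and compound cannot be told apart in these differences.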

How the results depend on the processing

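In KARPAS-422 with CPI-169 the median, 0.01, took either sign: it lay between -0.17 and 0.11 with 1 library left out and at -0.06 with the length trend removed. The medians of the other comparisons kept their sign. In KARPAS-422, 15 subunits rose under quantile normalization and 16 under median scaling, where 25.2% and 32.2% of all genes did. Leaving out 1 library each gave 6 to 15 that fell. These were 6 without CPI-169 replicate 2 and 15 without DMSO replicate 1, where 24% and 27.2% of all genes fell. In Pfeiffer with GSK343, 7 fell without a filter on low values, 5 under quantile normalization, 0 with the line fitted alone and 28 without KARPAS-422 DMSO replicate 1 and CPI-169 replicate 2, and 1 rose under median scaling. The Pfeiffer median was -0.18 under quantile normalization, -0.24 under median scaling and -0.25 with libraries scaled to 1 FPKM sum, and leaving out 1 library each gave 1 to 31 that fell and medians of -0.58 to -0.25. For the difference between the effects, 1 subunit was higher without the filter, under quantile normalization, under median scaling, with the length trend removed and with sum scaling, and 8 were lower without the filter. Leaving out 1 library each gave 0 to 1 higher and 5 to 27 lower. For KARPAS-422 against Pfeiffer in DMSO, 6 were higher under quantile normalization, 1 under median scaling, 5 with the length trend removed and 7 with sum scaling, and 1 to 2 with 1 library left out; medians were -0.55, -1.25 and -0.40 under quantile, median and sum scaling. For RL against KARPAS-422 the median was 0.29 under quantile normalization and 0.30 with sum scaling, and 0 to 3 were lower with 1 library left out. For RL against Pfeiffer 14, 3, 12 and 16 were higher under quantile, median, length and sum scaling, with medians of -0.23, -0.73, -0.25 and -0.08, and 8 without both low KARPAS-422 libraries. Over all genes, the shares higher under quantile, median, length and sum scaling were 44.5%, 34.8%, 44.4% and 52.7% for KARPAS-422 against Pfeiffer. For RL against Pfeiffer they were 41.8%, 29.4%, 40.6% and 46.9%. The cause of the changes between settings was not tested. Replicate numbers shared by groups do not mark pairs in the labels, and same-numbered KARPAS-422 libraries correlated at -0.152, -0.252 and 0.156 in their deviations from the group means. With the replicate block 8 rose and 10 fell in KARPAS-422, 16 fell in Pfeiffer and 14 differences were lower. The depth is unknown, and 2 libraries a group limit the Pfeiffer and RL results.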

Other observations

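Of the complex IV isoforms known to be restricted to certain tissues, COX4I2, COX6A2 and COX7B2 are listed at 0 in every library, and COX6B2 and COX7A1 stayed under 1 FPKM. COX8C had 1.93 and 2.21 FPKM in Pfeiffer DMSO and 1.011 and 2.486 with GSK343, and at most 0.111 in the libraries of the other lines. NDUFA4L2, a paralogue of NDUFA4, separated the lines, with 15.5, 17.3 and 16.2 FPKM in KARPAS-422 DMSO, 8.65 and 9.49 in RL, and 0.89 and 0.52 in Pfeiffer, the reverse of the order seen for NDUFA4. For each gene the median length of its annotated protein-coding transcripts in GENCODE 29 was taken. It was at most 1000 bases for 47 of 58 subunits. The median over the subunits was 679 bases, against 1750 for all tested protein-coding genes. Which transcript the cells expressed was not determined.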
